A study of Mus musculus with 4 samples.

Results

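Centrosome and primary cilium genes were followed as C2C12 myoblasts began to differentiate. The set was chosen by gene symbol and took in the Cep, Ift, Bbs, Tctn, Tubg and Rpgrip names with Wdpcp, Cspp1 and Arl13b, without the cytokinesis gene Cep55. Of 14806 genes with a symbol of their own in the platform annotation, 64 were members. Among rows with 1 symbol, Cep164 had 2 and every other member had 1, and the brighter row was used. Total RNA of C2C12, an established line of mouse myoblasts, had been hybridised to 4 Affymetrix exon arrays. The growth group was 2 arrays of cells kept in DMEM with 10% fetal bovine serum and taken at 60 to 70% confluency. The differentiation group was 2 arrays of cells switched at full confluency to DMEM with 2% horse serum and taken 24 h later. No genotype change or drug separates the groups. Cell density, serum and differentiation changed together and cannot be told apart. The series calls the replicates biological but does not describe the cultures behind them, so p-values measure the spread between these arrays.

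The centrosome is a pair of centrioles inside a cloud of pericentriolar material, where gamma-tubulin ring complexes start microtubules. Centrioles are copied once per cell cycle. In cells that have left the cycle the older centriole can dock at the cell surface through its distal appendages and grow a primary cilium, a solitary non-motile antenna that is taken apart again before the cell divides. A transition zone gates the cilium's base, intraflagellar transport (IFT) trains carry cargo along it (IFT-B outward, IFT-A back), and the BBSome, named for Bardet-Biedl syndrome, sorts membrane proteins with them. In muscle, microtubule organisation is known to move from the centrosome to the nuclear envelope as myoblasts become myotubes.

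The deposited value is 1 linear intensity per transcript cluster, a group of exon probes assigned to a gene, on each array. Median intensities over the 16658 clusters were 167.8 to 177.2. No member was listed at 0, and the lowest member value was 13.7. No detection calls came with the values, so low ones may be background, and only values of the same gene are compared. Changes are differentiation minus growth in log2(intensity + 16) with the limma standard error (SE). An adjusted p, by Benjamini-Hochberg over all 16658 clusters, under 0.05 counts as past the threshold, and "rose" and "fell" are used only for genes past it. Myog, the myogenic differentiation factor, rose from 674 ± 38.6 to 1785 ± 148 (SD, n = 2; 1.38 ± 0.18 SE, limma adjusted p = 0.00237), and the proliferation marker Mki67 fell from 454 ± 124 to 80.1 ± 16.1 (-2.28 ± 0.24 SE, limma adjusted p = 0.000790). Of 5 myoblast markers, Myod1, Cdh15 and Myog rose and none fell, but Myog alone did so with an offset of 1 or without any 1 array other than growth replicate 2. The summed intensity of the 5 was 6038 and 6119 in growth and 9926 and 10310 in differentiation. In whole-culture RNA, fewer cells with a transcript and less of it per cell cannot be told apart.

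Of the members past the threshold, those of the cilium's gate and transport were higher and most Cep and gamma-tubulin genes were lower after 24 h of differentiation. Of the 64 members 9 rose and 11 fell, which is 31.2%, beside 16.2% of all clusters (8.64% higher and 7.52% lower). Among 26 genes listed under the transition zone, IFT trains and BBS group, 8 rose and none fell (limma, 11 higher and 0 lower at an unadjusted p under 0.05, a cut passed by 17.8% of all clusters on the higher and 15.2% on the lower side). The count depends on which genes are called ciliary: with the 8 Cep genes of the appendages and cilium, 9 of 34 rose and 1 fell, and the median was 0.23 in place of 0.39. Among 23 genes of the centriole, the gamma-tubulin complex and the pericentriolar material, 9 fell and none rose (limma, 13 lower and 2 higher at an unadjusted p under 0.05). The remaining 15, the 8 just named and 7 others, were Cep genes, of which Cep19 rose and Cep128 and Cep89 fell. Median log2 changes were 0.39 for the ciliary and -0.49 for the centrosomal genes, beside -0.01 for all genes. Those 2 pools of roles were put together after the values had been seen, so they describe the split and do not test it. Changes past the threshold ran from -0.68 to -1.46 downward and from 0.75 to 1.08 upward. Both differentiation arrays were above both growth arrays for 23 members and below both for 21, beside 60.8% of all clusters (30.8% higher and 30.1% lower).

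**Figure D1:**
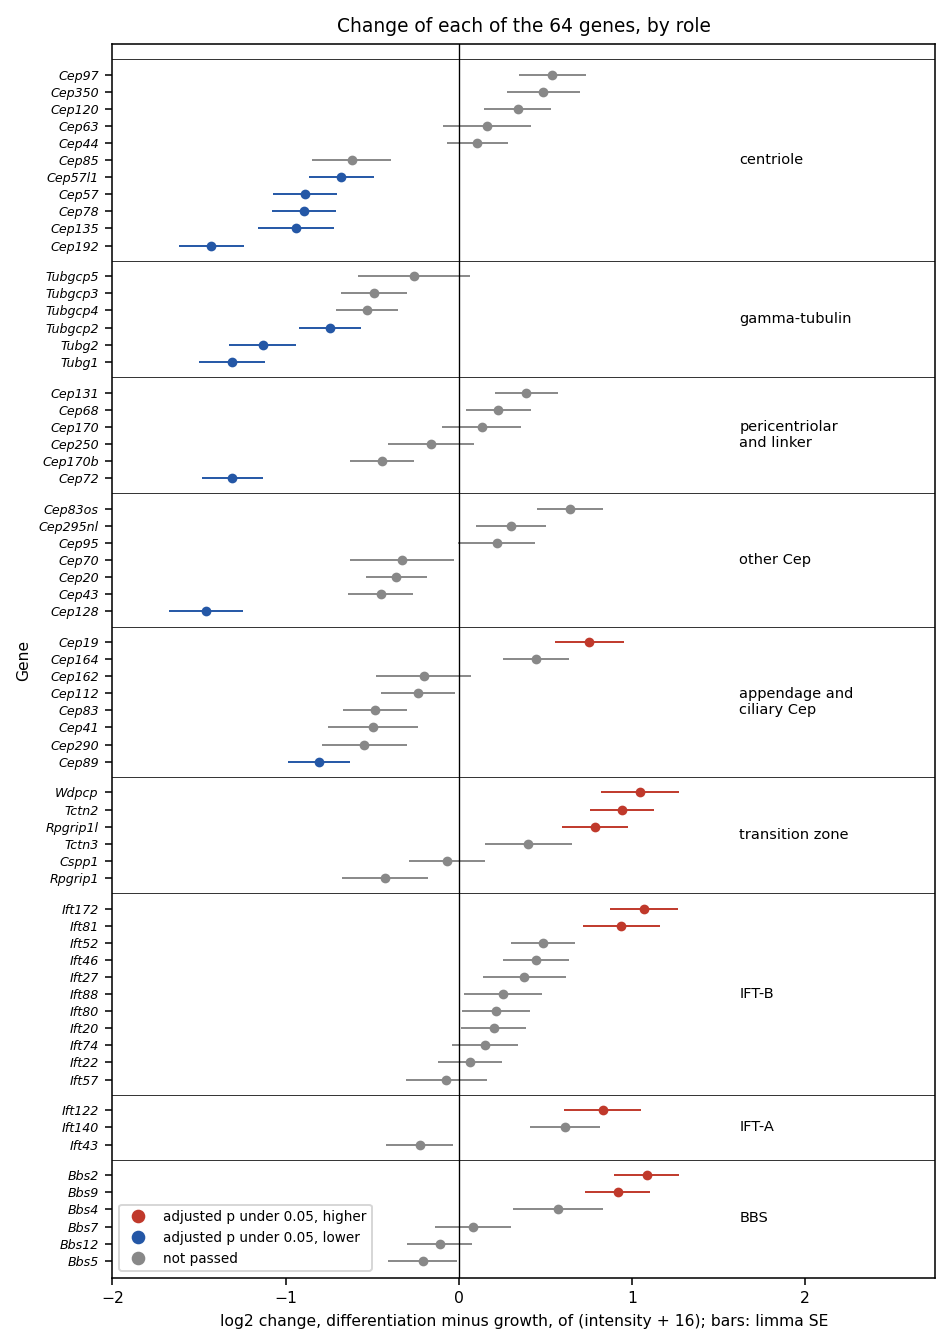
Log2 change in (intensity + 16), differentiation minus growth, of each of the 64 genes, grouped by role; points are limma estimates from 2 arrays per group and bars are SE. Red genes rose, blue genes fell and grey genes did not pass the threshold; red points lie in the transition zone, IFT and BBS groups and at Cep19, and blue points lie in the Cep and gamma-tubulin groups.

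**Figure D2:**
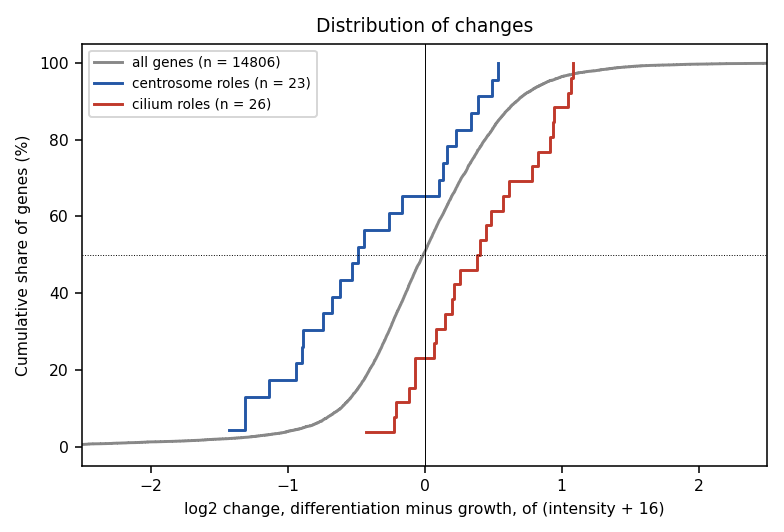
Cumulative share of genes (%) against log2 change in (intensity + 16), differentiation minus growth, for all 14806 genes, the 23 centrosomal and the 26 ciliary members. At the quartiles and the median (0.39) the ciliary curve is right of the others, while the curve of all genes runs on to larger changes at both ends; the centrosomal curve is left over most of its range, with a median of -0.49.

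Among 11 centriole genes 5 fell and none rose, with a median log2 change of -0.62. Cep192, the scaffold that brings gamma-tubulin and the kinases Plk4 and Aurka to the centrosome, read 734 and 780.5 in growth and 298 and 246 in differentiation. Both differentiation arrays were far below both growth arrays (-1.43 ± 0.19 SE, limma adjusted p = 0.00237). Cep135, a structural protein of the centriole's inner cartwheel, read 178 and 239.6 in growth and 116 and 86.4 in differentiation, and fell by less (-0.94 ± 0.22 SE, limma adjusted p = 0.0265). Cep57, which lies around the centriole with Cep63 and Cep152, read 815 and 923 in growth and 484 and 439 in differentiation (-0.89 ± 0.18 SE, limma adjusted p = 0.0163). Its paralog Cep57l1 was the member closest to the threshold among those past it (-0.68 ± 0.19 SE, limma adjusted p = 0.0447), with 368 and 385 in growth and 209 and 251 in differentiation. Both paralogs thus fell. The arrays of the groups lay apart for both, as for all 20 members past the threshold and 60.8% of all clusters. That separation adds nothing to the call of a gene. Cep78, a centriole wall protein whose loss in humans causes retinal and hearing disease, read 511 and 598 in growth and 301 and 279 in differentiation (-0.89 ± 0.19 SE, limma adjusted p = 0.0165).

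Another 5 centriole genes had positive changes, and none of them passed. Cep97, the partner of Ccp110 in the cap that keeps a centriole from growing a cilium, had the highest at 0.54 ± 0.19 SE (limma adjusted p = 0.0951), with 129 and 154 in growth and 231 and 196 in differentiation. Cep63, which recruits the duplication machinery, stood at 0.16 ± 0.25 SE, with a 95% interval of -0.43 to 0.75. Cep350 (0.49 ± 0.21 SE) and Cep120 (0.34 ± 0.19 SE), a centriole elongation gene, lay between them. Cep85, a regulator of Nek2, was lower on both differentiation arrays without passing (-0.62 ± 0.23 SE, limma adjusted p = 0.104). Changes of the centriole genes thus spanned -1.43 to 0.54, and the list did not move as a block.

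All 6 genes of gamma-tubulin and its ring complex had negative changes, and 3 of them fell. Tubg1, the main gamma-tubulin gene, read 1902 and 1836 in growth and 668 and 829.7 in differentiation (-1.31 ± 0.19 SE, limma adjusted p = 0.00377). Tubg2, the second gamma-tubulin gene, read 465 and 576 in growth and 224 and 231 in differentiation (-1.13 ± 0.19 SE, limma adjusted p = 0.00701). The differentiation arrays lay below both growth arrays for each. Tubg1 and Tubg2, both on chromosome 11, are close paralogs. Because they are paralogs, probes of each may take up signal of the other, and their separate falls are uncertain to that extent. Their sequences were not compared here. Tubgcp2, a core subunit of the ring complex, read 681 and 719 in growth and 396 and 428 in differentiation (-0.74 ± 0.18 SE, limma adjusted p = 0.0286). The subunit genes Tubgcp4 (-0.53 ± 0.18 SE, limma adjusted p = 0.0824) and Tubgcp3 (-0.49 ± 0.19 SE, limma adjusted p = 0.120) had lower values on both differentiation arrays but did not pass. Tubgcp5 was dim and scattered, with 63.7 and 132 in growth and 95.2 and 57.9 in differentiation, and it did not pass (-0.26 ± 0.32 SE, limma adjusted p = 0.602).

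Of 6 genes of the pericentriolar material and of the linker between centrioles, Cep72 alone passed, and it fell. Cep72, a pericentriolar protein that helps to hold gamma-tubulin at the centrosome, read 57.9 and 59.4 in growth and 13.7 and 14.5 in differentiation (-1.31 ± 0.18 SE, limma adjusted p = 0.00254). It was dim throughout, so its size depends on the offset, and it was -1.98 with an offset of 1. Cep131, a protein of the satellites around the centrosome, had the highest change of this group (0.39 ± 0.18 SE, limma adjusted p = 0.181). The linker genes Cep250 (-0.16 ± 0.25 SE) and Cep68 (0.23 ± 0.19 SE) had intervals of -0.74 to 0.41 and -0.21 to 0.66.

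Cep128, which builds the subdistal appendages where microtubules are anchored, had the largest fall of all members. It read 252 and 347 in growth and 105 and 90.4 in differentiation (-1.46 ± 0.21 SE, limma adjusted p = 0.00365). It was placed among 7 other Cep genes with no role on the lists used here, of which 1 fell and none rose. In that group Cep83os had the highest change and was the member just outside the threshold (0.64 ± 0.19 SE, limma adjusted p = 0.0562), with 47.0 and 58.8 in growth and 85.9 and 96.5 in differentiation. Cep83os is annotated as a long non-coding RNA whose start site lies 177 bases from that of the distal appendage gene Cep83, on the opposite strand, so it is a member by name only. Cep83 itself was lower on both differentiation arrays without passing (-0.49 ± 0.18 SE, limma adjusted p = 0.111), with 358 and 411 in growth and 257 and 282 in differentiation. The next members outside the threshold were Ift140 (adjusted p = 0.0783) and Tubgcp4, and those inside it, in limma's adjusted p, were Cep57l1 (0.0447), Ift122 (0.0407) and Cep19 (0.0384).

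**Figure D3:**
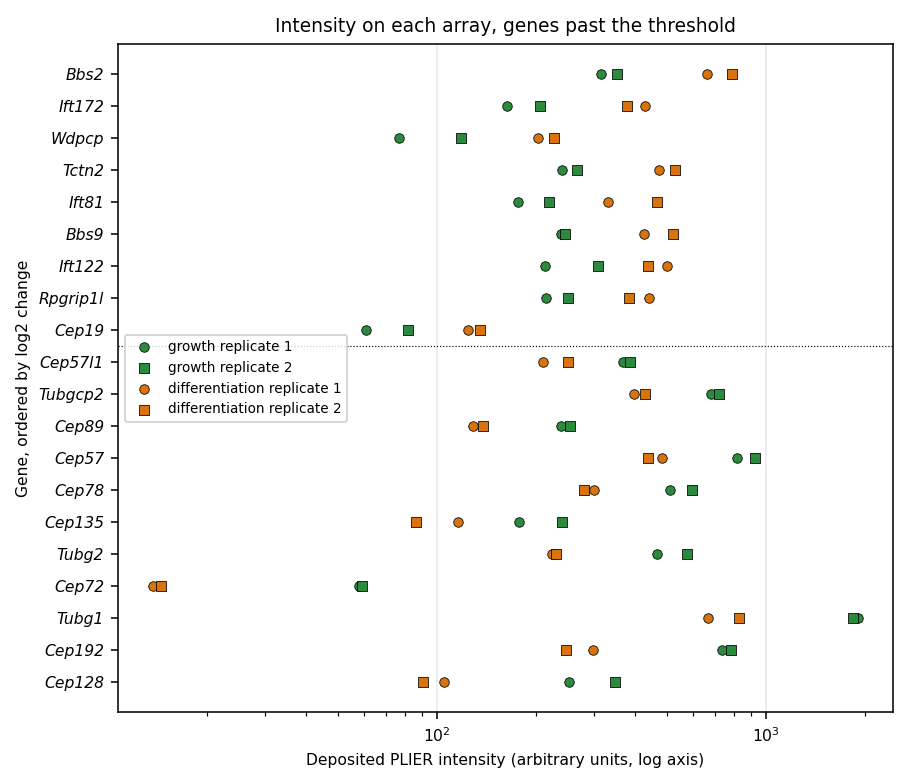
Deposited intensity (arbitrary units, log axis) of the 20 genes past the threshold on each of the 4 arrays; circles are replicate 1 and squares replicate 2, green for growth and orange for differentiation. Above the dotted line, for the 9 genes that rose, both orange points lie right of both green points, and below it, for the 11 that fell, both lie left.

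The 8 Cep genes of the appendages and of the cilium included 1 that rose and 1 that fell, and 6 of the 8 had negative changes, with a median of -0.36. Cep89, a distal appendage protein needed for docking the centriole, fell (-0.81 ± 0.18 SE, limma adjusted p = 0.0206), with 237 and 253 in growth and 129 and 138 in differentiation. Cep19, which brings the GTPase Rabl2 to the ciliary base so that IFT trains can enter, rose (0.75 ± 0.20 SE, limma adjusted p = 0.0384), with 60.8 and 81.5 in growth and 125 and 136 in differentiation. Cep164, the distal appendage protein that recruits the ciliogenesis kinase Ttbk2, read 127 and 132 in growth and 163 and 203 in differentiation on its brighter row and did not pass (0.45 ± 0.19 SE, limma adjusted p = 0.148). Its dimmer row gave -0.12 ± 0.25 SE, of the opposite sign, with arrays of the groups overlapping. Cep290, listed here by its name but itself a transition zone protein, mutated in several human ciliopathies, read 61.5 and 101 in growth and 57.8 and 41.9 in differentiation and did not pass (-0.54 ± 0.25 SE, limma adjusted p = 0.168). Cep41, needed for glutamylation of ciliary tubulin (-0.49 ± 0.26 SE), Cep162, which helps to place the transition zone (-0.20 ± 0.27 SE), and Cep112 (-0.23 ± 0.21 SE) had negative changes that did not pass.

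Of 6 genes of the transition zone and ciliary membrane, 3 rose and none fell, with a median log2 change of 0.59. Wdpcp, a planar polarity effector that works with Fuz and Intu in loading IFT-A onto cilia, read 76.8 and 118 in growth and 203 and 226 in differentiation (1.04 ± 0.22 SE, limma adjusted p = 0.0188). Tctn2, a tectonic protein of the gate complex, read 240.1 and 266 in growth and 474 and 527 in differentiation (0.94 ± 0.18 SE, limma adjusted p = 0.0125). Rpgrip1l, a scaffold of the transition zone, read 214 and 249.9 in growth and 441 and 382 in differentiation (0.79 ± 0.19 SE, limma adjusted p = 0.0289). For these 3 genes both differentiation arrays were above both growth arrays. Tctn3, a relative of Tctn2, read 60.3 and 107 in growth and 118 and 106 in differentiation and did not pass (0.40 ± 0.25 SE, limma adjusted p = 0.296). Cspp1, a microtubule-binding protein of the ciliary shaft, had a change near 0 and an interval of -0.57 to 0.44. Rpgrip1, known from the photoreceptor cilium, had the lowest change of the group (-0.43 ± 0.25 SE, limma adjusted p = 0.264). Arl13b and Tctn1 were not analysed here.

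Among 14 IFT genes 3 rose (21.4%, beside 8.64% of all clusters higher) and none fell, and 12 had positive changes. Ift172, the largest IFT-B subunit and part of the outer, cargo-facing side, read 163 and 205 in growth and 428 and 378 in differentiation (1.07 ± 0.20 SE, limma adjusted p = 0.0101). Ift81, which binds tubulin together with Ift74, read 177 and 219 in growth and 331 and 465 in differentiation (0.94 ± 0.22 SE, limma adjusted p = 0.0278). Its partner Ift74 was at 0.15 ± 0.19 SE, with an interval of -0.29 to 0.60, which overlaps that of Ift81 (0.42 to 1.46). The difference between the partners was not tested. Ift122, a core subunit of IFT-A, read 213 and 308 in growth and 500.2 and 438 in differentiation (0.83 ± 0.22 SE, limma adjusted p = 0.0407). Ift140, another core subunit of IFT-A, did not pass (0.61 ± 0.20 SE, limma adjusted p = 0.0783), with 113 and 123 in growth and 218 and 162 in differentiation. Ift43, a small IFT-A subunit, had the lowest change among IFT genes (-0.23 ± 0.20 SE, limma adjusted p = 0.448).

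The other IFT-B genes did not pass. Ift88, the subunit most used as a ciliogenesis knockout, read 192 and 294 in growth and 295 and 279 in differentiation, with an interval of -0.27 to 0.78. Ift57, the lowest of the IFT-B genes, had an interval of -0.61 to 0.47. Ift52 (0.49 ± 0.18 SE, limma adjusted p = 0.109) and Ift46 (0.44 ± 0.19 SE, limma adjusted p = 0.151), of the IFT-B core, were higher on both differentiation arrays without passing. The 11 IFT-B genes had a median change of 0.25 and the 3 IFT-A genes one of 0.61.

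Of 6 BBS genes 2 rose and none fell. Bbs2, a BBSome subunit, had the largest rise of all members and read 315 and 352 in growth and 664 and 789 in differentiation (1.08 ± 0.19 SE, limma adjusted p = 0.00829). Bbs9, which scaffolds the BBSome, read 239 and 245 in growth and 425 and 521 in differentiation (0.92 ± 0.19 SE, limma adjusted p = 0.0163). Growth and differentiation arrays did not overlap for these genes, as for every member past the threshold. Bbs4, the subunit that binds the satellite protein Pcm1, read 71.4 and 129 in growth and 141 and 163 in differentiation. Its growth arrays differed widely from each other, and it did not pass (0.57 ± 0.26 SE, limma adjusted p = 0.167). The subunit gene Bbs5 had the lowest change (-0.21 ± 0.20 SE, limma adjusted p = 0.491), and Bbs7 and Bbs12, a chaperonin-like assembly factor of the BBSome, had intervals of -0.42 to 0.59 and -0.55 to 0.33.

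The arrays of a group were not equal for these genes. Growth replicate 2 read higher than growth replicate 1 for 56 of 64 members, by a median of 0.21 in log2(intensity + 16), beside 0.07 over all clusters. Differentiation replicate 2 read higher than replicate 1 for 29 of 64, with a median of -0.10, beside -0.02 over all clusters. The shares of all clusters that read higher on replicate 2 were not counted. Of the 20 members past the threshold, Cep192 and Cep72 stayed past it whichever array was left out. Bbs2, Cep128 and Tubg1 stayed past it in 3 of 4 such fits and Tubg2 in 2. The other 14 stayed past it in at most 1, and Cep57l1, Cep89 and Tubgcp2 in none. The number that rose was 1 without growth replicate 1, 10 without growth replicate 2, 1 without differentiation replicate 1 and 0 without differentiation replicate 2. The number that fell was 8, 5, 3 and 3 in the same order. With an offset of 1 in place of 16, 14 of the 20 lost their call, and the share of all clusters called went from 16.2% to 6.9%. Fewer of all clusters were also called with any array left out. All 20 changes kept their sign in each of these fits. That was fixed in advance, because for each gene both differentiation arrays lay on 1 side of both growth arrays. The median change of the ciliary genes stayed between 0.20 and 0.48, and that of the centrosomal genes between -0.62 and -0.39.

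**Figure D4:**
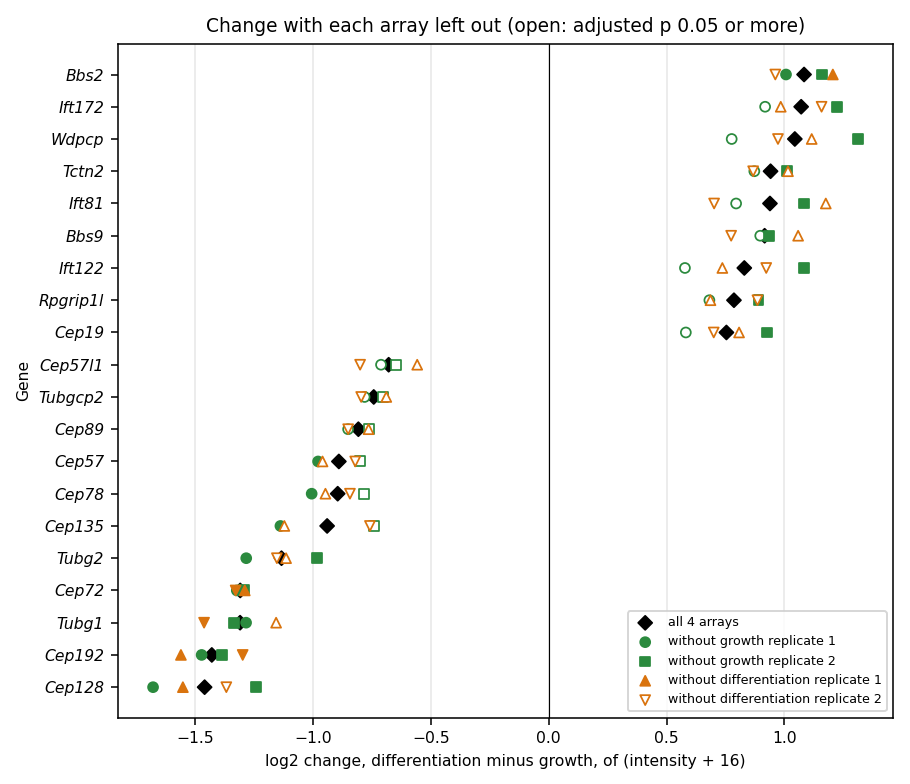
Log2 change in (intensity + 16), differentiation minus growth, of the 20 genes past the threshold, with all 4 arrays (black diamonds) and with each array left out; open symbols have an adjusted p of 0.05 or more. Every symbol stays on its side of 0, which was fixed in advance because the arrays of the groups do not overlap for these genes. Filled symbols in all fits are seen for Cep192 and Cep72.

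Promoters were read after it was seen that, in most roles, the genes that passed had done so in 1 direction. IFT-A, the pericentriolar and linker genes and the other Cep genes each held only 1 such gene. Their single direction was thus fixed in advance. RefSeq promoters (build GRCm38.p6, 250 bases before to 50 after the start) were found for 54 of the 64 genes, and for 11829 genes of the arrays, members included, which give the comparison. The X-box is the site of the RFX factors, which are known to drive ciliary genes in animals. On both strands, GTTNCC followed after 0 to 3 bases by GGNAAC was searched. It was found in 5 of the 54 genes (9.26%), beside 0.888% of genes on the arrays. Cep19 alone of these rose, and Bbs7, Cep41, Ift57 and Tctn3 did not pass. The sites are shown, with the X-box in capitals, because they are a feature that the selection by name did not use.
Cep19 at chr16:32099803-32099832, plus strand: agccttctGTTGCCTTGGGAACgatcctcg
Bbs7 at chr3:36613489-36613518, minus strand: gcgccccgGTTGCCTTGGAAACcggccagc
Cep41 at chr6:30693858-30693887, minus strand: gtcccgcGTTGCCCTTGGCAACcattgagc
Ift57 at chr16:49699226-49699255, plus strand: gccctgcgGTTGCCTGGTAACggtggggac
Tctn3 at chr19:40612350-40612379, minus strand: tcccagcgGTTGCCAGGTAACgggaaccac

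The shorter RFX-type motif GTTGCC, which also lies inside each of these X-boxes, was found in 17 of 54 genes (31.5%), beside 13.9% of genes on the arrays. It occurred in 3 of the 7 risen genes with a promoter and in 2 of the 8 fallen ones, Cep57 and Cep128, both without a full X-box. Of the 39 genes that did not pass, 12 held it (30.8%). Among genes that rose, Ift172 and Tctn2 held it without a full X-box, and those stretches are shown with the motif in capitals.
Ift172 at chr5:31291097-31291126, minus strand: tgtcgcactcacGTTGCCtgtgcgtcagcg
Tctn2 at chr5:124598750-124598779, plus strand: cattgattggtgGTTGCCatggctgcaggc

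Motifs of cell-cycle promoters were searched in the same way. The CHR element, spelled TTTGAA or else TTCGAA, is bound by complexes that repress mitotic genes in resting cells. It was found in 3 of 8 fallen genes (37.5%), in none of 7 risen genes and in 7 of all 54 (13.0%), beside 18.8% of genes on the arrays. E2F-type letters (TTCCCGC or else TTCGCGC or else TTGCCGC or else TTGGCGC) were found in 2 of 8 fallen genes, in none of 7 risen genes and in 15 of all 54 (27.8%), beside 15.7% of genes on the arrays. Among the 39 genes that did not pass, 13 held E2F-type letters (33.3%) and 4 a CHR element (10.3%). The CCAAT box was found in 26 of 54 (48.1%), beside 42.3%. Fallen genes with a CHR match (Cep57l1, Cep72, Cep89) or an E2F-type match (Cep57, Cep128) are shown with it in capitals. The Cep57 stretch also holds GTTGCC, left in small letters. These matches are descriptions of letters, and the numbers of genes are small. Promoters of Cep192 and Tubg1 were not used here.
Cep57l1 at chr10:41809849-41809878, minus strand: tggaggcgctggTTTGAAgaaggggaaaga
Cep72 at chr13:74062254-74062283, minus strand: gccagcgtccggTTTGAAaacatggcgcca
Cep89 at chr7:35396937-35396966, plus strand: ctctggctggaaTTTGAAtgacgccttgct
Cep57 at chr9:13827186-13827215, minus strand: agacgttgccgTTCCCGCaggctccgcgat
Cep128 at chr12:91384603-91384632, minus strand: acaaaattagtGCGGGAAaagaaggcaggg

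Several members share a start region with a gene on the opposite strand. By RefSeq, 20 members had such a partner within 1000 bases, and for 14 the partner was measured. Among the 5 past the threshold with a measured partner, Rpgrip1l rose with Fto, an RNA demethylase gene 303 bases away, which also rose (0.75 ± 0.18 SE, limma adjusted p = 0.0309). Cep89 fell with Faap24, a Fanconi anaemia complex gene 296 bases away (-1.10 ± 0.19 SE, limma adjusted p = 0.00728). Cep57l1 fell while the stress-response gene Sesn1, 706 bases away, rose from 249 and 287 to 559 and 675 (1.15 ± 0.19 SE, limma adjusted p = 0.00691). Pigx, paired with Cep19, and Fam76b, paired with Cep57, did not pass. Head-to-head partners thus passed in the same direction in some pairs and in opposite directions in another. These pairs were looked up after the members' values had been seen.

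Genes of the same structures under other names were counted from lists, whose counts stand beside 8.64% of all clusters higher and 7.52% lower. Of 31 other centrosome assembly genes 14 fell and none rose, with a median log2 change of -0.64. The falls were led by Stil, a cartwheel assembly factor (-2.46 ± 0.20 SE, limma adjusted p = 0.000278), which read 612 and 601 in growth and 114 and 82.0 in differentiation. Plk4, the kinase that starts centriole duplication, fell from 269 ± 51.8 to 52.8 ± 13.2 (-2.05 ± 0.22 SE, limma adjusted p = 0.000923). Poc1a, a centriole wall protein (-1.66 ± 0.18 SE), and Haus6, of the augmin complex that branches microtubules (-1.77 ± 0.20 SE), also fell. These 4 genes stayed past the threshold whichever array was left out. The number of falls was 5 to 10 with an array left out and 7 with an offset of 1.

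Of 35 other cilium assembly genes 6 rose and 1 fell, with a median of 0.17, beside 8.64% of all clusters higher and 7.52% lower. Fuz, the partner of Wdpcp in the planar polarity effector complex, read 108 and 119.7 in growth and 236 and 281 in differentiation (1.07 ± 0.19 SE, limma adjusted p = 0.00823). Dync2li1, a light chain of the dynein that drives IFT back to the base, rose (1.13 ± 0.20 SE, limma adjusted p = 0.00864), as did the IFT-A subunit gene Wdr19 (1.09 ± 0.20 SE, limma adjusted p = 0.0107) and Kifap3, which links the outward motor to its cargo (1.00 ± 0.19 SE, limma adjusted p = 0.0124). Rab23, a GTPase that restrains Hedgehog signalling, was the gene that fell (-0.86 ± 0.20 SE, limma adjusted p = 0.0233). Without differentiation replicate 2, and likewise without differentiation replicate 1, 1 of these genes rose and none fell, and without growth replicate 1, 2 rose and 2 fell. With an offset of 1, 1 rose and none fell. The median of the list was 0.38 without growth replicate 2 and 0.10 without growth replicate 1. It was 0.19 without differentiation replicate 1 and 0.21 without differentiation replicate 2.

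Of 9 genes known to take cilia apart or to hold them back, 5 fell and none rose. Ccp110, which is among these 5, was also counted among the other centrosome assembly genes that fell. The mitotic kinase gene Aurka, which starts disassembly of the cilium, read 2532 and 2546 in growth and 336 and 310.2 in differentiation (-2.91 ± 0.18 SE, limma adjusted p = 0.000158). The kinase genes Nek2 (-2.80 ± 0.18 SE) and Plk1 (-2.62 ± 0.20 SE) fell by similar amounts. Ccp110, the cap protein that works with Cep97 (-0.90 ± 0.22 SE, limma adjusted p = 0.0300), and the dynein regulator gene Nde1 (-0.86 ± 0.18 SE, limma adjusted p = 0.0174) fell by less, and both lost their call with an offset of 1 and in 3 of 4 fits with an array left out. Several of these genes also act in mitosis, and Mki67 fell as well; how much of any member's change goes with the fall in cycling was not tested.

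Primary cilia carry Hedgehog signalling, and of 13 genes of that pathway 3 rose and 1 fell. The ligand co-receptor genes Gas1 (1.13 ± 0.18 SE, limma adjusted p = 0.00582) and Cdon (0.81 ± 0.19 SE, limma adjusted p = 0.0246) and the inhibitor gene Sufu (0.68 ± 0.18 SE, limma adjusted p = 0.0402) rose. Ptch1, the receptor and a target of the pathway, fell from 206 ± 7.98 to 115 ± 24.4 (-0.78 ± 0.20 SE, limma adjusted p = 0.0369). Gli1, the other classical target, was dim, with 30.2 and 36.1 in growth and 39.9 and 22.8 in differentiation, and had an interval of -0.59 to 0.44. Gas1 lost its call without differentiation replicate 2, and Cdon, Sufu and Ptch1 lost theirs with an offset of 1 and whichever of the 4 arrays was left out.

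Beside 8.64% of all clusters that rose, 2 of 9 RFX and other ciliogenic factors rose and none fell. These were Rfx5, an RFX member known from MHC class II genes (0.81 ± 0.22 SE, limma adjusted p = 0.0447), and Glis3, a zinc finger factor found in cilia (0.71 ± 0.19 SE, limma adjusted p = 0.0441). Rfx3, a regulator of ciliary genes, read 87.1 and 182 in growth and 241 and 179.7 in differentiation and did not pass (0.65 ± 0.31 SE, limma adjusted p = 0.190). Neither rise held with an offset of 1 or when any array but growth replicate 2 was left out, and Glis3 was also lost without that array. Of 9 genes tied to the microtubule organiser of the myotube nuclear envelope, 2 rose and none fell, again beside 8.64% of all clusters higher and 7.52% lower. Syne1, which encodes nesprin-1 of the outer nuclear membrane, read 252 and 252 in growth and 719.8 and 649 in differentiation (1.38 ± 0.18 SE, limma adjusted p = 0.00216). Akap6, an anchor at the nuclear envelope that binds nesprin-1, read 165 and 253 in growth and 544 and 484 in differentiation (1.26 ± 0.23 SE, limma adjusted p = 0.00981). Pcm1 (0.04 ± 0.26 SE) and Cdk5rap2 (-0.26 ± 0.25 SE), pericentriolar proteins that relocate to the nucleus in myotubes, had intervals of -0.57 to 0.65 and -0.83 to 0.31. Pcnt (-0.70 ± 0.25 SE) and Syne2 (-0.59 ± 0.23 SE), of the same list, were lower on both differentiation arrays without passing. Of the 9 changes 6 were positive and 3 negative. Pcm1, Cdk5rap2 and Pcnt were also counted among the other centrosome assembly genes. Syne1 stayed past the threshold with any array left out, whereas Akap6 lost it with an offset of 1 and when either differentiation array was left out.

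**Figure D5:**
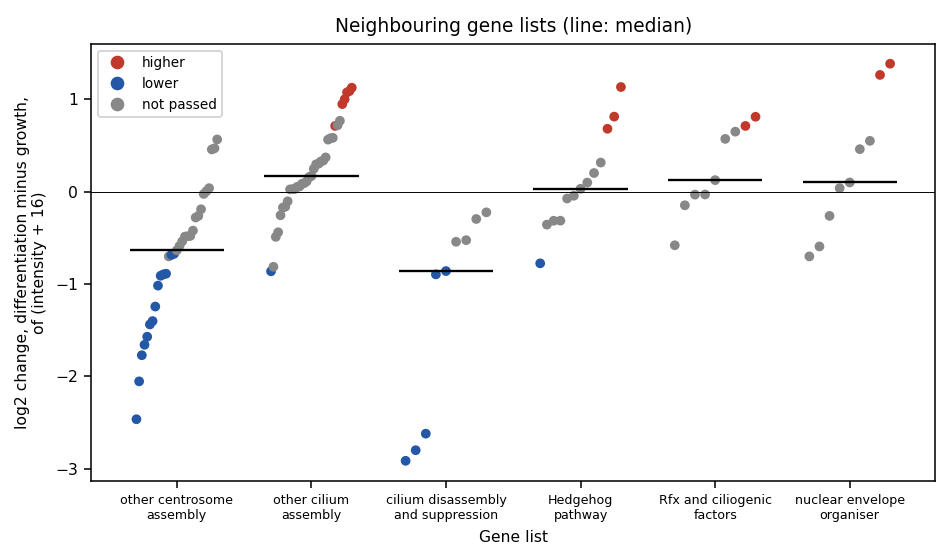
Log2 change in (intensity + 16), differentiation minus growth, of the genes of 6 related lists, without the members; each point is a gene and the line is the list's median. Medians were -0.64 for other centrosome assembly genes, 0.17 for other cilium assembly genes and -0.86 for genes of cilium disassembly. Red genes rose and blue genes fell. Ccp110 is drawn under both centrosome assembly and cilium disassembly, and Pcnt, Pcm1 and Cdk5rap2 under both centrosome assembly and nuclear envelope.

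Markers of other cell types were read beside the members, with the shares of all clusters, 8.64% higher and 7.52% lower, for comparison. Of 6 markers of multiciliated epithelium 1 rose and none fell. This was Dnah5, a motor of motile cilia, which read 21.5 and 41.8 in growth and 172 and 134 in differentiation (1.85 ± 0.25 SE, limma adjusted p = 0.00258), while Foxj1, the master factor of motile cilia, was at 0.12 ± 0.19 SE. The summed intensity of the 6 markers was 644.4 to 656.8 in growth and 766 to 876.1 in differentiation. Of 3 blood markers Ptprc and Cd68 fell, and neither did when any array but growth replicate 2 was left out. The blood markers had a sum of 301.8 to 385.9 in growth and 166.6 to 206.7 in differentiation. Of 3 adipocyte markers Fabp4 fell, but its call was lost with median centring, a robust prior, an offset of 1 and each of the 4 arrays left out. The adipocyte markers had a sum of 355.2 to 424 and 247 to 295.1. None of 3 epithelial (189.8 to 255.6 and 206 to 228.7) or 3 endothelial markers (134 to 190.2 and 175.6 to 186.1) passed in limma's test. No marker was at 0 on all arrays, and their part in the members' changes was not tested.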

How the data were processed

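The deposited table holds linear intensity values, made by the authors with PLIER and the mouse build mm9, per the submitters' processing notes. The sources used here do not state its version, background correction or normalization. All 4 columns were used. Arrays have no depth; 2 arrays per group limit the precision.

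Rows were named from the platform annotation (14938 with 1 symbol, 989 with several, 731 with none). Several-symbol rows, among them ones naming Bbs1, Cep295 and the members Bbs12 and Cep43, were not used. All 64 members matched RefSeq GRCm38.p6 by Entrez identifier with unchanged symbols. Because its build differs from mm9, RefSeq coordinates are printed only for promoter sequences.

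Values were taken as log2(intensity + 16), with no further normalization or filter, and tested with limma 3.58.1 in R 4.3.3 (two-sided, Benjamini-Hochberg over 16658 clusters). The procedure was tested on simulated data. Members, roles, lists and the rule for naming genes were chosen with earlier results of these data known. That rule takes every member past the threshold, the extremes of each role, a fixed set of well-known members, the members nearest the threshold, the leading 4 genes of a list and any genes making up a count of at most 5; some further members and list genes, chosen after their values were seen, are named to complete a role or pair. Alternatives were an offset of 1, median centring, quantile normalization, leaving out the dimmest 25% of clusters, an intensity trend or robust prior, the replicate number as a block, the mean over a gene's rows and leaving out each array. With an array left out, the lone array was taken to vary as the other group did. Comparing the proteins of Tubg1 and Tubg2 was planned but not done.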

Additional observations from a re-analysis of the deposited data

How the results depend on the processing

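The numbers of members that rose and fell were 9 and 11 under quantile normalization, median centring, a robust prior and the mean over a gene's rows. They were 11 and 11 without the dimmest clusters, where 61 members were tested. There Cep72 was left out, and Cep83os, Ift140 and Tubgcp4 were new calls. With an intensity trend the numbers were 11 and 13. With an offset of 1 they were 1 and 5, and over all clusters 528 rose and 622 fell; with an intensity trend 2415 and 1947 did. With an array left out, 0 to 10 members rose and 3 to 8 fell, 305 to 1189 clusters rose and 446 to 839 fell, and the members' median change was -0.11 to 0.18 (0.07 with all arrays). Among 36 members followed gene by gene, some changes that had not passed turned sign with an array left out: Ift88 (-0.0313 to 0.54), Cspp1 (-0.32 to 0.18), Ift57 (-0.36 to 0.21) and Tubgcp5 (-0.70 to 0.19). Sign changes of the other members are not listed here. In detail, Ift88 went to -0.0313 without growth replicate 1, Cspp1 to 0.18, Ift57 to 0.21 and Tubgcp5 to 0.19 without growth replicate 2, Ift57 to 0.03 without differentiation replicate 1, and Cspp1 to 0.0038 and Tubgcp5 to 0.04 without differentiation replicate 2. The cause was not tested. The replicate number as a block gave 9 and 10 members, losing Cep57l1 (limma adjusted p = 0.0533), and changed no other call of a member, while Poc5, Cetn3, Sufu and Glis3 of the lists lost theirs, so that 12 in place of 14 other centrosome assembly genes fell, and 7 other cilium assembly genes rose and 2 fell in place of 6 and 1; same-numbered arrays share only a number (r of their deviations -0.037 over all clusters). No dim value can be told from background.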
